A study of Homo sapiens with 21 samples.

Results

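Perfluorodecanesulfonic acid (PFDS) and perfluorodecanoic acid (PFDA) were compared at a matched dose and time in SH-SY5Y cells, over every expressed gene. SH-SY5Y is an established human neuroblastoma line that can be brought to a neuron-like state. The comparison takes 3 PFDS and 3 PFDA libraries of the 21 in the study, all from cells with the label WT. After 11 days of differentiation the cells received 30 µM of PFDS or PFDA for 24 h, in solutions with 1% methanol. The 3 PFOS and 3 PFOA libraries, treated in the same way, give the same change of head group at a shorter chain, and 3 Control libraries give the level without a compound. Whether the controls also held methanol is not given in the labels. The labels call the treatments triplicate without naming separate cultures, so the p-values below rest on the spread among libraries, part of which could be technical.

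Per- and polyfluoroalkyl substances such as these are surfactants with a fluorinated tail and an acidic head. PFDS carries a sulfonic acid head and PFDA a carboxylic acid head. The carbon of the carboxyl group counts in the name of PFDA, so its fluorinated tail is also a single carbon shorter than that of PFDS, and head and tail differ together in this pair. Such compounds resemble fatty acids in shape, are known as ligands of the lipid-sensing nuclear receptor PPARA in rodent liver, and bind fatty acid carriers. The brain makes its own cholesterol, and cells signal stress in the supply of lipids and amino acids through the factor ATF4. The comparison asks which genes differ with the head group at the same dose and time.

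RNA depleted of ribosomal RNA was sequenced, and the total counts per library were 11839106, 13313204 and 27134957 for PFDS and 22668470, 13258773 and 27940700 for PFDA. Levels are given below as CPM, read counts relative to the TMM-scaled library total, in replicate order 1, 2, 3. PFDS replicate 1 stood apart. Over 11157 genes of at least 10 CPM on average, the SD of the log2 difference between libraries ran from 0.243 to 0.29 between PFDS replicate 1 and each of the other 5. For the 9 pairs of a PFDS with a PFDA library it ran from 0.161 to 0.277 (median 0.235), for the 3 pairs within PFDS from 0.221 to 0.29 (median 0.259) and for the 3 pairs within PFDA from 0.15 to 0.218 (median 0.199). PFDS and PFDA libraries were thus no farther from each other than PFDS libraries were among themselves. Deviations of PFDS replicate 1 from the mean of the 6 libraries decreased with the GC content of a gene (Spearman's rho -0.38 over 11041 genes, a description across genes), against 0.301 and 0.231 in PFDS replicates 2 and 3. Replicates of either group differed by more than sampling noise (chi-square per degree of freedom 5.01 to 15.19), so no library was counted as a repeat of another. Mitochondrial genes took 5.24%, 3.934% and 4.124% of the counts in PFDS and 3.66%, 5.395% and 3.369% in PFDA.

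The cultures carried the neuroblastoma identity that the label gives. All 20 neuronal and noradrenergic markers passed the filter on low counts, and their summed level was 7760 to 8880 CPM in PFDS, 7550 to 7960 in PFDA and 8020 to 8490 in Control. TH, the first enzyme of catecholamine synthesis, was nearly absent, with 10, 10 and 32 counts in PFDS and 22, 8 and 23 in PFDA, while DBH, the enzyme that makes noradrenaline, reached 1200, 1200 and 1400 CPM in PFDS and 1120, 1070 and 1270 in PFDA. Of the 14 glial and Schwann cell markers, 10 passed the filter, with a sum of 19.9 to 20.9 CPM in PFDS and 18.8 to 20.4 in PFDA. Of the 10 endothelial and blood cell markers, 2 passed, with a sum of 2.99 to 4.81 CPM in PFDS and 3.86 to 6.38 in PFDA, and the haemoglobin gene HBB had 0 counts in each of these 6 libraries. The 18 mesenchymal neuroblastoma markers had 15 members tested and a sum of 548 to 681 CPM in PFDS and 593 to 652 in PFDA.

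No gene passed the threshold between PFDS and PFDA. With edgeR's quasi-likelihood test and Benjamini-Hochberg adjustment, 0 of 24879 genes (0.0%) reached an adjusted p of 0.05, and the smallest adjusted p was 0.402. An unadjusted p under 0.05 was reached by 1390 genes (5.59%), of which 654 (2.63%) were higher and 736 (2.96%) lower with PFDS. DESeq2 also called 0 genes, with 1440 at an unadjusted p under 0.05 and a smallest adjusted p of 0.0778. In 2346 genes (9.43%) the 3 PFDS libraries did not overlap the 3 PFDA libraries, with PFDS above in 1046 (4.2%) and below in 1300 (5.23%). The count of 0 depended on the filter: with every gene that had a count kept, 10 genes were called, and PFDS was higher in 5 and lower in 5 (CORIN, SPOCK1, UTRN, SULF2 and NEFM, described below, among them). The smallest edgeR adjusted p in that setting was 0.000286, for the antisense gene ENSG00000275139 (log2 fold change -0.79). SLITRK6 (0.495) and MTND2P28 (0.44) came next, each with an edgeR adjusted p of 0.000715. Leaving out PFDS replicate 2 gave 1 call, UTRN, and leaving out PFDS replicate 3 gave 1 other, CDHR1 (log2 fold change -0.90, edgeR adjusted p = 0.0407).

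The intervals say how large a difference could have gone unseen, given the spread in the fit. That spread is estimated per gene from all 21 libraries together, so the intervals can be too narrow for genes that varied more within PFDS. Of the 11304 genes whose higher group averaged 10 CPM or more, 96.6% had a 95% interval for PFDS minus PFDA that lay within 1.5-fold in either direction, and 99.7% had one within 2-fold, and the bounds lay a median of 0.198 from the estimate on the log2 scale. At lower levels the intervals were wider. Of the 20529 genes of at least 1 CPM, 60.7% had an interval within 1.5-fold and 83.9% within 2-fold. These 20529 include the 11304 above, so the shares are lower for genes between 1 and 10 CPM alone. The median log2 fold change over all genes tested was -0.002, and at 10 CPM or more it was 0.03, with 61.0% of genes above 0. Values near that size are therefore the background against which the gene groups below are read, and scaling by library size only moved the median of all genes to -0.042.

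**Figure D1:**
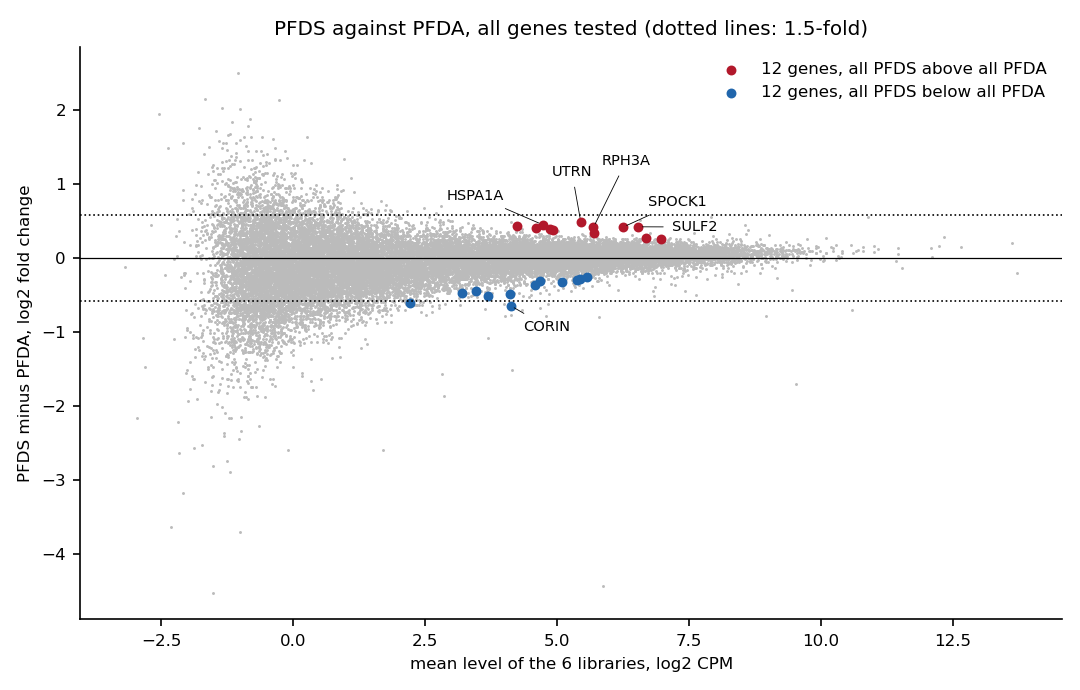
Log2 fold change of PFDS minus PFDA (vertical) against the mean level of the 6 libraries in log2 CPM (horizontal) for each of the 24879 genes tested, with dotted lines at 1.5-fold. The coloured points are the 24 protein-coding genes of at least 5 CPM with the smallest p and no overlap between the groups, and all have log2 fold changes between -0.65 and 0.49.

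Fitted differences past 1.5-fold were rare among abundant genes. Of the 11304 genes, 20 had a fitted fold past 1.5, of which 13 were small or structural RNAs, 4 were other non-coding genes and 3 were protein-coding. All 13 structural RNAs had fitted values below 0, with overlapping groups in 11. The largest was RNU1-27P, an annotated copy of the U1 small nuclear RNA, chosen here after its values were seen. It had 3.72, 4.51 and 6.53 CPM in PFDS, against 7.6, 325 and 6.15 CPM in PFDA, so PFDA replicate 2 was high and the other 5 libraries were alike. The 3 protein-coding genes were CORIN, IGF2 and SCART1. SCART1, also chosen after its values were seen, had 5.83, 19.6 and 13 CPM in PFDS, against 23.8, 24.8 and 17.8 CPM in PFDA, with overlapping groups and a log2 fold change of -0.77, or -0.46 without PFDS replicate 1.

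CORIN had the smallest p of all genes. It encodes corin, a membrane serine protease known for activating atrial natriuretic peptide in the heart, and lies at chr4:47593999-47838106 on the minus strand of hg38. Its level was 11, 15.8 and 13.7 CPM in PFDS, against 20.5, 22.7 and 20.6 CPM in PFDA, and 22.9, 20.1 and 17.4 CPM in Control. All 3 PFDS libraries lay below all PFDA and Control libraries. The log2 fold change of PFDS minus PFDA was -0.65 ± 0.14 (SE, n = 3 each; 95% interval -0.92 to -0.37), with edgeR's adjusted p = 0.402. Without PFDS replicate 1 it was -0.53. For PFOS minus PFOA the log2 fold change of CORIN was 0.06 (interval -0.21 to 0.33).

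The 12 protein-coding genes nearest the threshold with PFDS above PFDA are described with no call. RPH3A, which encodes the synaptic vesicle protein rabphilin 3A, had 68.1, 56.2 and 53.5 CPM in PFDS, against 42.5, 42 and 48.3 CPM in PFDA. Its log2 fold change was 0.41 ± 0.10 (SE, n = 3 each), with edgeR's adjusted p = 0.629. SPOCK1, a secreted proteoglycan of the brain matrix, had 106, 73 and 81.5 CPM in PFDS, against 62, 61.7 and 71 CPM in PFDA. SULF2, an extracellular enzyme that trims sulfate groups from heparan sulfate, had 129, 95.4 and 95.6 CPM in PFDS, against 74.9, 77.2 and 86.4 CPM in PFDA, and it overlaps the expressed gene NCOA3. UTRN, which encodes utrophin, a relative of dystrophin that ties the cytoskeleton to the membrane, had 67.6, 37.9 and 48.3 CPM in PFDS, against 36, 37.2 and 36 CPM in PFDA. In each of these 4 genes PFDS replicate 1 was the highest of the 6 libraries. Without it the log2 fold changes became 0.31 for RPH3A (0.41 with all libraries), 0.25 for SPOCK1 (0.42), 0.27 for SULF2 (0.42) and 0.26 for UTRN (0.49), with the direction kept. UTRN moved the other way without PFDS replicate 2, to 0.67 with edgeR's adjusted p = 0.0259, and this was the only gene called in that setting.

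The remaining 8 genes had log2 fold changes between 0.26 and 0.45. TPMT, which methylates thiopurine drugs, had 28.4, 26.7 and 28.4 CPM in PFDS, against 20.3, 20.3 and 22.2 CPM in PFDA, a log2 fold change of 0.41 that stayed between 0.37 and 0.45 in all alternatives run. BCL9L, a co-activator of beta-catenin in Wnt signalling that overlaps UPK2, had 59.7, 53.9 and 61.1 CPM in PFDS, against 46.4, 46.5 and 46 CPM in PFDA. UBQLN4, a carrier of ubiquitinated proteins to the proteasome, had 132, 133 and 144 CPM in PFDS, against 116, 102 and 124 CPM in PFDA. Within PFDA, UBQLN4 ran from 102 to 124 CPM, while BCL9L ran from 46 to 46.5. HSPA1A, the heat-inducible chaperone HSP70, had 36.7, 23.9 and 31.3 CPM in PFDS, against 23.3, 21 and 22.8 CPM in PFDA, and its log2 fold change of 0.45 was 0.31 without PFDS replicate 1. NYAP2, an adaptor of phosphoinositide 3-kinase in neurons, FAM104A, the transcription factor ZNF281 and the glycolytic enzyme ALDOA completed the set, with log2 fold changes of 0.38, 0.39, 0.28 and 0.43. NYAP2 had 0.24 without PFDS replicate 1. FAM104A and ALDOA overlap other expressed genes, so their counts may be incomplete. Over all 12 genes, PFDS replicate 1 was the highest library in 8, and the Control mean lay between the PFDS and PFDA means in 11, UTRN being the exception. The genes were chosen because PFDS and PFDA lay apart, which favours another group falling between them, so nothing is drawn from that count.

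On the lower side, PAQR6, a membrane progesterone receptor, had 15.8, 16.6 and 10.9 CPM in PFDS, against 18.9, 21.8 and 19.2 CPM in PFDA (log2 fold change -0.48, and -0.29 without PFDS replicate 3). EIF4A1, the helicase that unwinds messenger RNA for translation, had 9.71, 12.1 and 10.4 CPM in PFDS, against 14.8, 16.1 and 14.9 CPM in PFDA. It overlaps the read-through gene SENP3-EIF4A1, so reads in the overlap can be left uncounted or misassigned, and these values may not be its full level. ZUP1, a deubiquitinase, was even within each group, at 21.4, 24.1 and 23.1 CPM in PFDS, against 28.3, 28.6 and 28.4 CPM in PFDA. FARSB, a subunit of phenylalanyl-tRNA synthetase, had 43.1, 41.3 and 44.4 CPM in PFDS, against 49.2, 53.7 and 52 CPM in PFDA (log2 fold change -0.26). BCL2L14 of the BCL2 family, DCAF4, FAM181B, UACA, WASHC2C, PHYKPL and ANKS3 had log2 fold changes of -0.61, -0.47, -0.45, -0.37, -0.32, -0.30 and -0.28. Several of these rested on 1 library. FAM181B had -0.25 without PFDS replicate 1, PHYKPL -0.165 and ANKS3 -0.16 without PFDS replicate 3, and UACA -0.22 and WASHC2C -0.18 without PFDA replicate 2. In 11 of the 12 the Control mean lay between the PFDS and PFDA means, which the choice of genes favours here too. The unadjusted p-values of the 12 ran from 2.01e-05 to 0.00735, and edgeR's adjusted p was 0.89 for each of them other than CORIN.

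**Figure D2:**
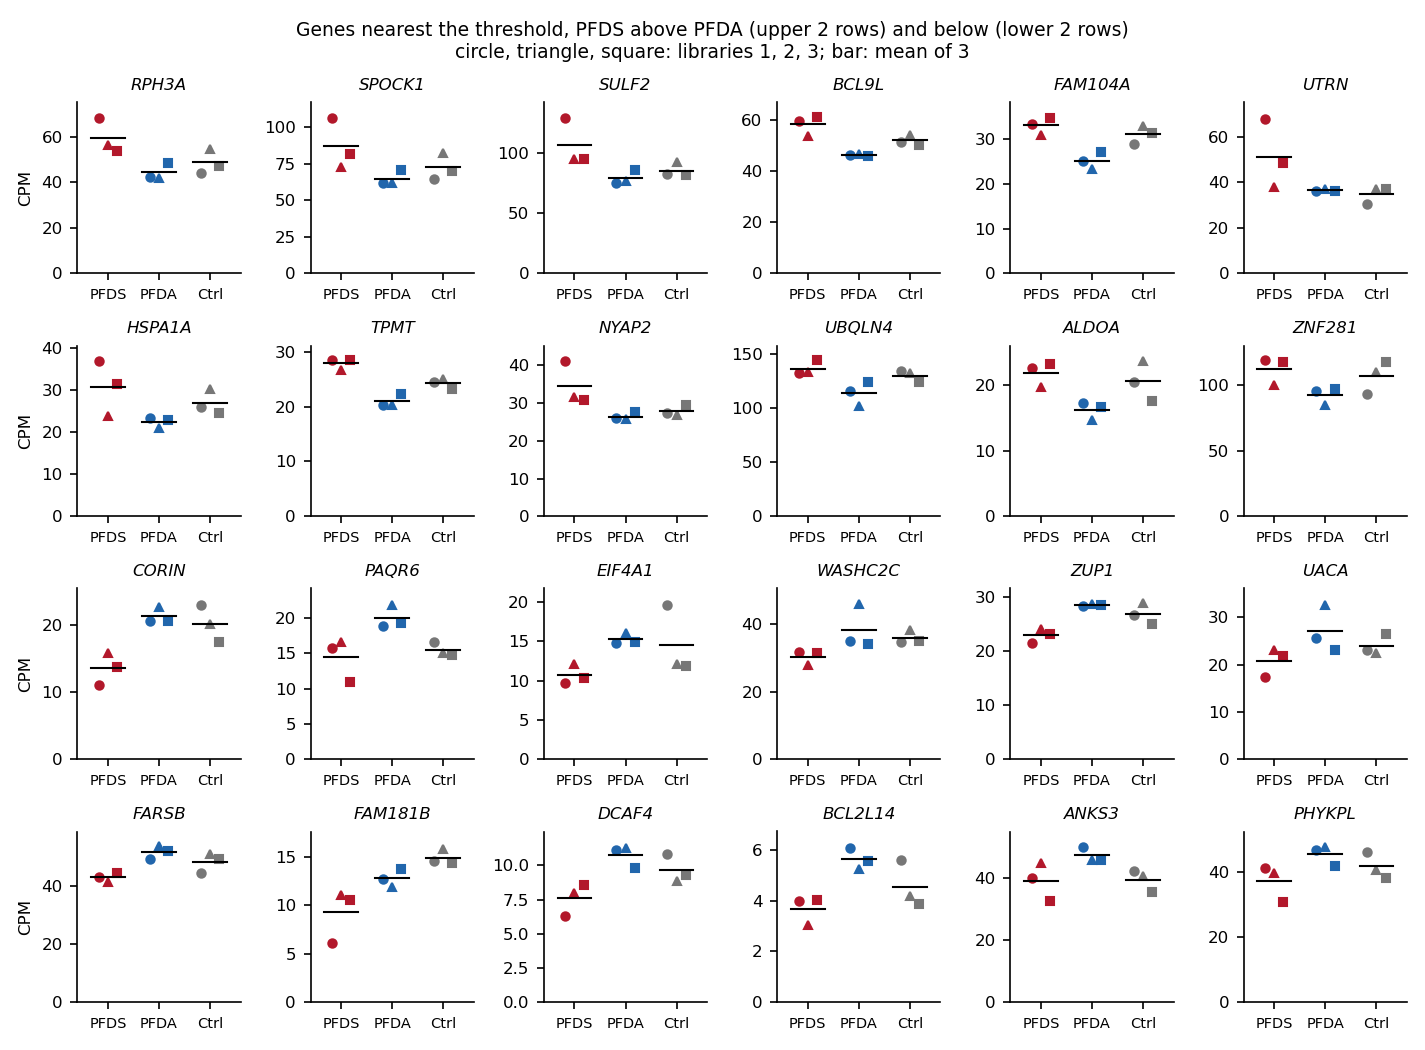
CPM of each library (vertical, from 0) in PFDS, PFDA and Control (left to right) for the 12 protein-coding genes with the smallest p above and the 12 below, with the mean of 3 as a bar. The PFDS and PFDA points do not overlap in any panel, which the choice of genes fixes, and PFDS replicate 1 (circle) is the highest of the 6 libraries in 8 of the upper 12 genes.

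A few genes were called for either compound against Control, and their levels in both are given side by side. Against the shared 3 Control libraries, edgeR called 6 genes for PFDS (0.0241% of those tested), 1 higher (0.00402%) and 5 lower (0.0201%), and 2 lower for PFDA (0.00804%), and these comparisons share their controls. EGR1, an immediate early transcription factor that neurons switch on after stimulation, was called for both. It had 16.3, 17.1 and 19.3 CPM in PFDS and 17.3, 15.6 and 13.9 CPM in PFDA, against 45.7, 33 and 28.7 CPM in Control. Its log2 fold change against Control was -1.02 with PFDS (edgeR's adjusted p = 0.000613) and -1.20 with PFDA (adjusted p = 1.13e-05). The direct PFDS minus PFDA difference of EGR1 was 0.18, and its interval (-0.13 to 0.49) lay within 1.5-fold in either direction. FOS, another immediate early factor, was called for PFDA and not for PFDS. It had 4.22, 5.69 and 3.42 CPM in PFDS and 3.25, 1.5 and 3.39 CPM in PFDA, against 8.57, 7.08 and 6.85 CPM in Control. The groups of FOS did not overlap, but PFDS replicate 3 and PFDA replicate 3 lay at 3.42 and 3.39 CPM, and the log2 fold change of PFDS minus PFDA was 0.65 with a wide interval, 0.095 to 1.20 (edgeR's adjusted p = 0.89), and 0.40 without PFDA replicate 2.

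The other genes called for PFDS against Control were not called for PFDA, and in none of them did the direct difference pass the threshold. FGF1, a growth factor for neurons and glia, had 36.9, 39.5 and 46 CPM in PFDS and 51, 44.3 and 48.4 CPM in PFDA, against 60.3, 55 and 57.3 CPM in Control. INHBA, the subunit of activin A, a TGF beta family signal, which overlaps its antisense gene INHBA-AS1, had 29, 32 and 47.3 CPM in PFDS and 43.4, 47.1 and 40.7 CPM in PFDA, against 55.9, 60.3 and 58.2 CPM in Control. ARSJ, an arylsulfatase, had 7.68, 10.6 and 10.6 CPM in PFDS and 11.1, 13 and 13.5 CPM in PFDA, against 18.7, 19.1 and 15 CPM in Control. In these 3 genes, and in CDH20 and NTNG2 below, the PFDA mean lay between the PFDS and Control means. Choosing genes called for PFDS and not for PFDA favours that order, so nothing is drawn from it. CDH20, a cadherin, had 5.24, 4.51 and 5.21 CPM in PFDS and 6.36, 5.48 and 6.18 CPM in PFDA, against 9.86, 11.5 and 7.76 CPM in Control. NTNG2, the membrane-anchored netrin G2 that guides axons, was the gene called higher, with 47.1, 49.8 and 52.4 CPM in PFDS and 42.1, 40.3 and 42.3 CPM in PFDA, against 38.5, 31.8 and 33.3 CPM in Control. The log2 fold changes of PFDS minus PFDA were -0.23 for FGF1, -0.25 for INHBA, -0.37 for ARSJ, -0.27 for CDH20 and 0.26 for NTNG2, and edgeR's adjusted p was 0.89 or above for each. Without PFDS replicate 1 ARSJ had -0.24 and INHBA -0.12, while INHBA had -0.515 without PFDS replicate 3, its highest PFDS library. SLC7A11, the cystine importer that ATF4 controls, had 10.6, 9.76 and 10.4 CPM in PFDS and 10.3, 9.91 and 12.1 CPM in PFDA, against 4.31, 6.66 and 7.9 CPM in Control. Its difference between the compounds was -0.08 (interval -0.404 to 0.245).

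**Figure D3:**
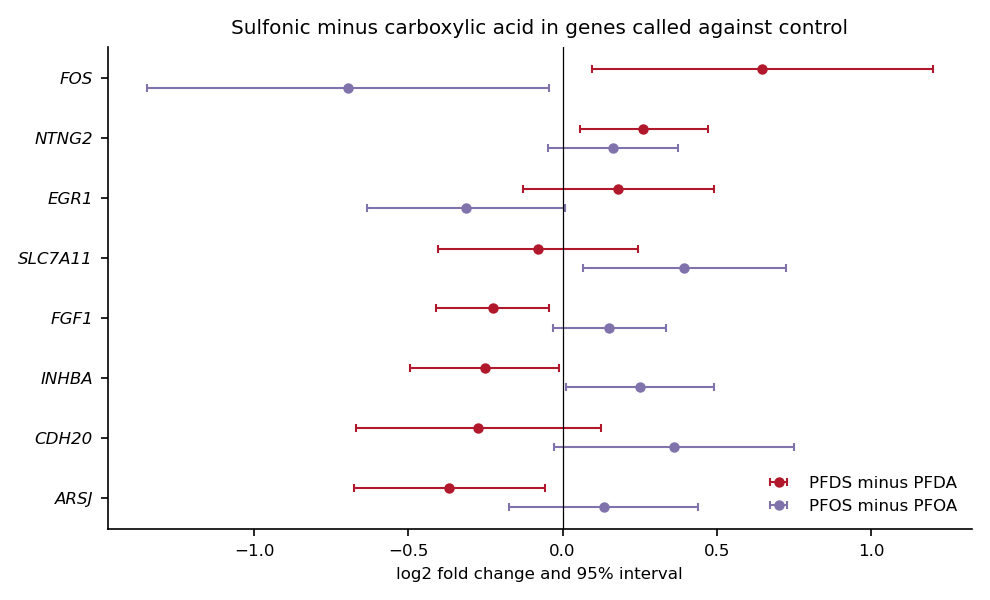
Log2 fold change with its 95% interval (horizontal) of PFDS minus PFDA (upper point of each pair) and PFOS minus PFOA (lower point) for 8 genes that were chosen because earlier results had called them for a compound against Control. The values of the pairs lie on opposite sides of 0 in all but NTNG2, and FOS has the widest intervals.

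Genes of lipid metabolism were examined first among the gene groups, since the compounds resemble fatty acids. Of the 27 genes of cholesterol synthesis and uptake, 25 were tested, 5 were above 0 and 20 below in PFDS minus PFDA, and 0 passed the threshold. Their median log2 fold change was -0.09, the lowest of the 29 lists of processes, and it rested on PFDS replicate 1. The summed level of the list was 2890, 3680 and 4300 CPM in PFDS and 3910, 4090 and 3900 CPM in PFDA, against 4480, 4440 and 4350 CPM in Control. PFDS replicate 1 alone lay far below, PFDS replicate 3 was above every PFDA library, and without PFDS replicate 1 the median was 0.02. MVD, which makes isopentenyl diphosphate, shows the pattern, with 59.7, 122 and 117 CPM in PFDS, against 133, 138 and 122 CPM in PFDA. LSS, lanosterol synthase, had 130, 207 and 204 CPM in PFDS, against 222, 219 and 208 CPM in PFDA. Without PFDS replicate 1 the log2 fold changes became -0.13 for MVD (-0.39 with all libraries) and -0.07 for LSS (-0.26). The library in which these genes were low is also the one whose deviations fell with GC content, and the part of that trend in their levels was not tested.

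**Figure D4:**
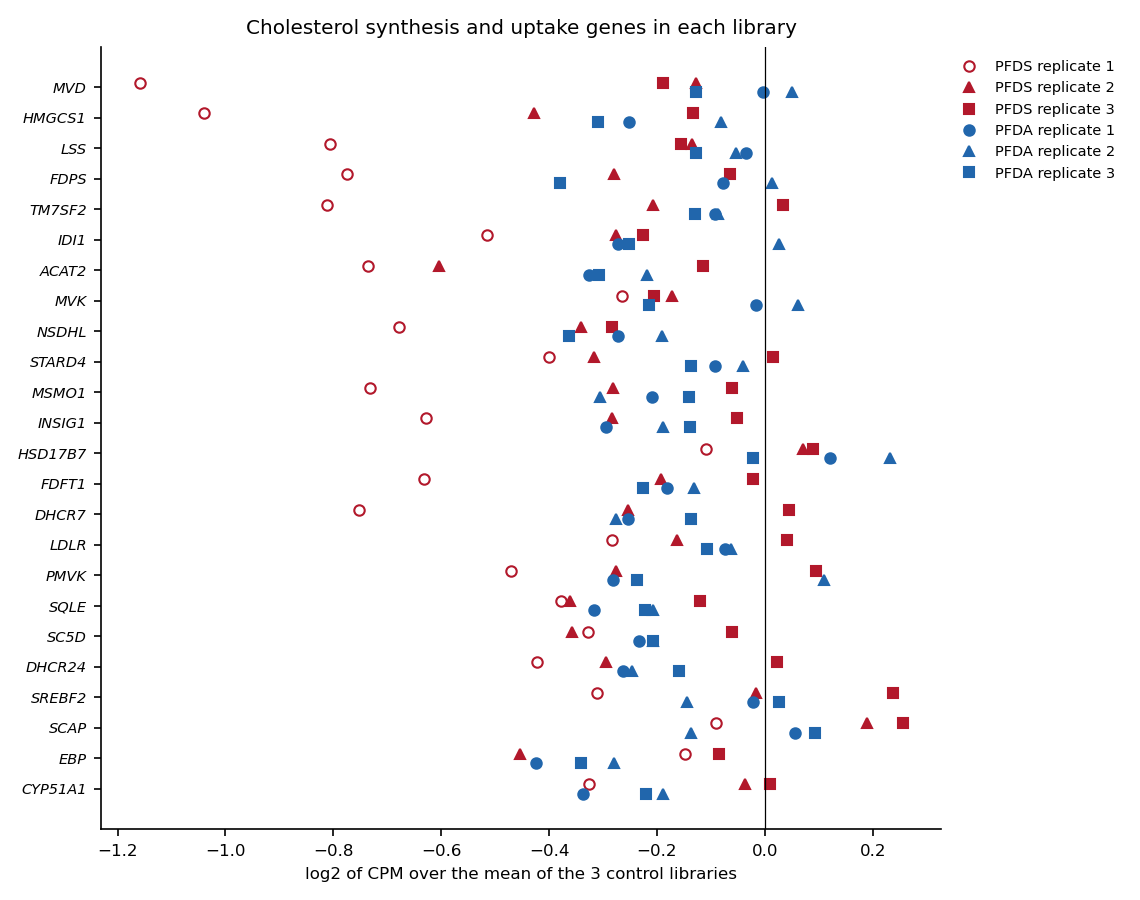
Log2 ratio of CPM to the mean of the 3 Control libraries (horizontal) for 24 of the 25 tested genes of cholesterol synthesis and uptake in the PFDS libraries (upper points of each row) and the PFDA libraries (lower points). PFDS replicate 1 (open circles) is the lowest of the 6 libraries in 20 of the 24 rows, MVD and LSS among them.

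The other lipid lists were centred near 0. For fatty acid synthesis and desaturation, 21 genes were tested, 9 above 0 and 12 below, with a median of -0.002. SCD5, a stearoyl-CoA desaturase of the brain, had 58.9, 48.4 and 55.3 CPM in PFDS, against 44.7, 36.3 and 51.3 CPM in PFDA, with overlapping groups and a log2 fold change of 0.29 that ran from 0.11 to 0.41 over the alternatives. MLXIPL, the sugar-sensing factor that drives lipid synthesis, had 1.6, 4.95 and 5.21 CPM in PFDS, against 6.49, 8.48 and 4.36 CPM in PFDA, and its value of -0.64 was -0.31 without PFDS replicate 1. For PPAR receptors, their targets and fatty acid oxidation, 34 genes were tested, 17 above 0 and 17 below, with a median of 0.004 and 27 intervals within 1.5-fold. Both medians changed sign under some alternatives and lay between -0.08 and 0.08 in all of them. PPARA had 46.8, 52.2 and 61.1 CPM in PFDS and 52.7, 42.1 and 51.2 CPM in PFDA, a log2 difference of 0.13 (interval -0.07 to 0.34) that was 0.22 without PFDS replicate 1 and 0.02 without PFDS replicate 3. Of the other lists, sphingolipid genes (25 tested) had a median of 0.05, and phospholipid and triacylglycerol genes (31 tested) 0.06. CERS5, a ceramide synthase, had 60.5, 56.3 and 52.4 CPM in PFDS, against 70.8, 64.4 and 65.1 CPM in PFDA, and LPCAT1, which makes phosphatidylcholine, had 102, 83.2 and 100 CPM in PFDS, against 76.7, 69.3 and 84 CPM in PFDA. Carriers and binding proteins of organic anions had 16 members tested and a median of -0.04. ABC transporters, which export lipids and drugs, had 17 and -0.04, with a sign that changed without PFDS replicate 1.

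Most chaperone genes had values above 0, by small amounts and with no call. Of 27 genes of the endoplasmic reticulum chaperones and the unfolded protein response, 26 were above 0 with a median of 0.12, against a median of 0.03 over all genes of at least 10 CPM. Of 19 cytosolic chaperones, 17 were above 0, with a median of 0.11. In both lists 0 genes passed the threshold, and 25 and 17 of their intervals lay within 1.5-fold. Without PFDS replicate 1 the medians were 0.10 and 0.11, and over all alternatives they ran from 0.08 to 0.19 and from 0.07 to 0.20. HSPA5, the chaperone BiP, had 316, 244 and 282 CPM in PFDS and 236, 236 and 238 CPM in PFDA, against a Control mean of 313. HSPA8, the constitutive HSC70, had 1400, 1040 and 1180 CPM in PFDS and 958, 1030 and 1020 CPM in PFDA, against a Control mean of 1330. In both, the PFDS libraries lay between PFDA and Control on average, and the log2 fold changes of 0.25 and 0.27 were 0.16 and 0.15 without PFDS replicate 1. The summed level of the reticulum list was 3910, 3380 and 3970 CPM in PFDS and 3340, 3390 and 3510 CPM in PFDA, against 3850, 4110 and 3800 CPM in Control, so PFDS replicate 2 lay within the PFDA range. The cytosolic list summed to 6140, 5550 and 6340 CPM in PFDS and 5250, 5670 and 5520 CPM in PFDA, against 6230, 7010 and 6470 CPM in Control, with the same library inside the PFDA range.

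The other stress lists had medians between 0.02 and 0.12. Among 30 tested genes of the ATF4 and integrated stress response, which slows translation and raises amino acid supply, 23 were above 0, with a median of 0.11. Its amino acid transporters had a median of 0.15. SLC1A4, which takes up serine and alanine, had 83.6, 64.3 and 73.2 CPM in PFDS, against 59.8, 57 and 66 CPM in PFDA, and SLC7A5, the large neutral amino acid transporter, had 120, 110 and 131 CPM in PFDS, against 101, 94.3 and 117 CPM in PFDA. The groups overlapped in both, and the log2 fold change of SLC1A4, 0.27, was 0.18 without PFDS replicate 1. ATF4 itself had 157, 147 and 153 CPM in PFDS and 132, 141 and 141 CPM in PFDA, a log2 difference of 0.14 (interval -0.03 to 0.31). Of 29 hypoxia and glycolysis genes, 23 were above 0 with a median of 0.12, and of 28 NRF2 and antioxidant genes, 22 were above 0 with a median of 0.08. Aminoacyl-tRNA synthetases had a median of 0.04 over 20 genes and p53 targets 0.04 over 20, and immediate early genes and ERK feedback had 0.02 over 33. In these 6 lists 0 genes passed the threshold, and the last median and that of the synthetases changed sign with scaling by library size.

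**Figure D5:**
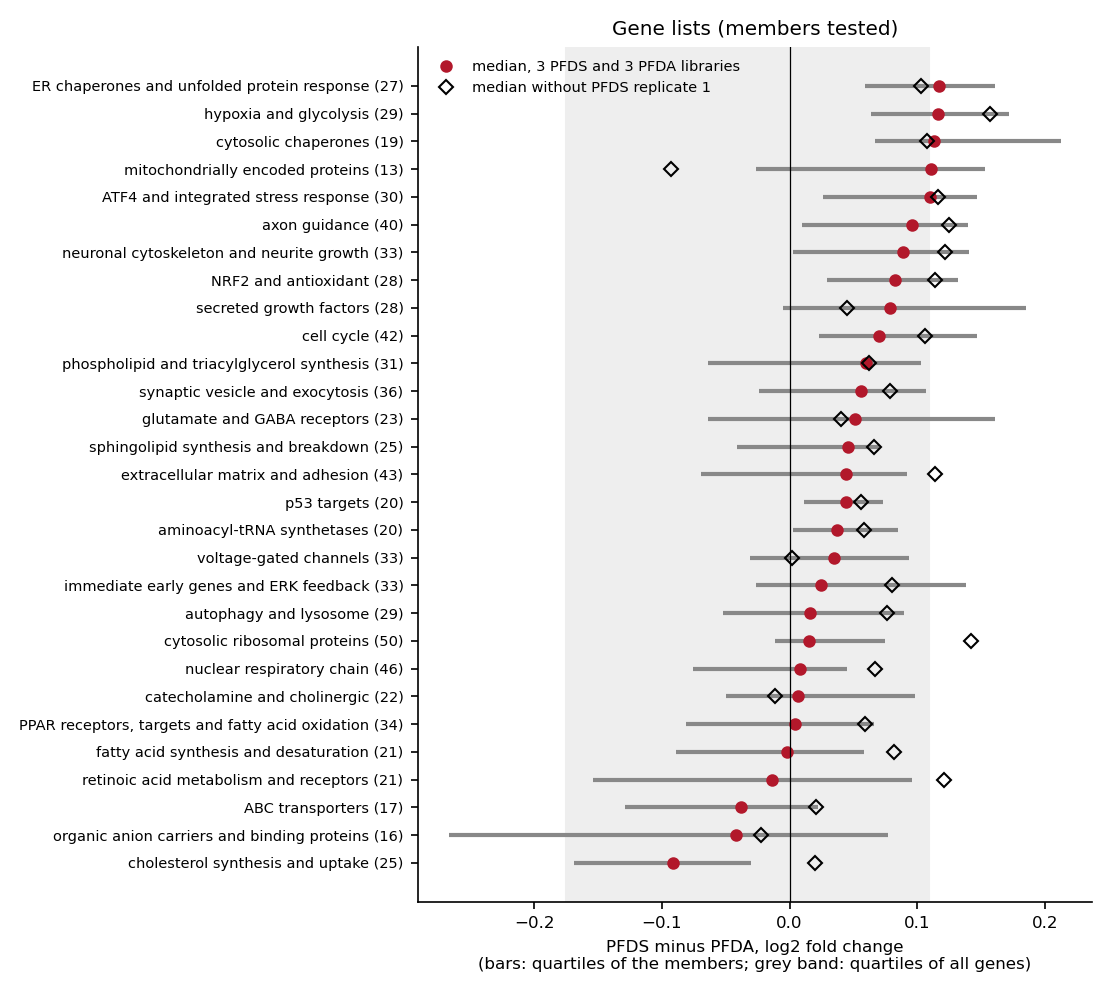
Median log2 fold change of PFDS minus PFDA (horizontal) for the 29 lists of processes with all 6 libraries (filled circles) and without PFDS replicate 1 (open diamonds), with bars from the lower to the upper quartile of the members and a grey band for the quartiles of all genes. Medians lie above 0 in 24 lists, and leaving out PFDS replicate 1 turns the sign for cholesterol, mitochondrially encoded proteins, fatty acid synthesis, retinoic acid, ABC transporters and the catecholamine list.

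In the neuronal lists, too, 0 genes passed the threshold. For axon guidance, 40 genes were tested and 31 were above 0, with a median of 0.10 over the list, 0.13 over its ligands and 0.06 over its receptors. In 9 of the 40 all PFDS libraries lay above all PFDA libraries, and in 1 below, against 4.2% and 5.23% of all genes tested. That count above is given because it was the largest of the lists, the next being 5 of 33 for the neuronal cytoskeleton and 5 of 42 for the cell cycle. The lists differ in length, and the shorter list of cytosolic chaperones had 4 of 19 above and 0 below, a similar share. The background includes genes at low levels, while 61.0% of genes of at least 10 CPM were above 0. No test of the list was made. EFNA5, the ligand ephrin A5, had 85.5, 75.6 and 87.5 CPM in PFDS, against 67.3, 64.8 and 76.8 CPM in PFDA, and SEMA6A, a membrane semaphorin that overlaps its antisense genes, had 62.1, 42.7 and 44.4 CPM in PFDS, against 40.4, 37.1 and 40.6 CPM in PFDA. SEMA6A rested on PFDS replicate 1, with a log2 fold change of 0.33 that was 0.15 without it. Of 33 genes of the neuronal cytoskeleton and neurite growth, 25 were above 0, with a median of 0.09, and MAP2, the dendritic microtubule protein, had 842, 745 and 845 CPM in PFDS and 763, 760 and 777 CPM in PFDA. A pair of intermediate filament genes had opposite signs. INA, alpha-internexin, had 244, 216 and 239 CPM in PFDS, against 195, 195 and 208 CPM in PFDA. NEFM, the medium neurofilament subunit, had 122, 113 and 141 CPM in PFDS, against 148, 204 and 131 CPM in PFDA, with a log2 fold change of -0.36 that passed the threshold when the filter on low counts was removed and in no other alternative. Without PFDA replicate 2, the highest library, it was -0.15. Both genes overlap another expressed gene.

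Synaptic and transmitter genes followed. Of 36 genes of synaptic vesicles and exocytosis, 25 were above 0, with a median of 0.06. RAB3A, the vesicle GTPase to which rabphilin binds, had 49.7, 46.1 and 56 CPM in PFDS, against 42.5, 41.6 and 44.7 CPM in PFDA, and SYN1, synapsin I, had 31.7, 31.7 and 35.9 CPM in PFDS, against 25.3, 30.3 and 27.4 CPM in PFDA. Their log2 fold changes were 0.24 and 0.27, the groups did not overlap in either, and each overlaps another expressed gene. CHGA, chromogranin A of dense-core granules, had 412, 305 and 312 CPM in PFDS, against 259, 269 and 295 CPM in PFDA, and its log2 fold change of 0.32 was 0.17 without PFDS replicate 1. Catecholamine and cholinergic genes had a median of 0.01 over 22, voltage-gated channels 0.04 over 33, and glutamate and GABA receptors 0.05 over 23. The catecholamine and channel medians changed sign with scaling by library size. SCN8A, a sodium channel of the axon initial segment, had 81.9, 77.9 and 83.8 CPM in PFDS, against 92.8, 97.3 and 89.9 CPM in PFDA, with no overlap and a log2 fold change of -0.20.

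IGF2, insulin-like growth factor 2, had the largest positive log2 fold change among protein-coding genes of at least 10 CPM. It had 342, 194 and 203 CPM in PFDS and 154, 138 and 154 CPM in PFDA, against 81.1, 138 and 134 CPM in Control. All PFDS libraries lay above all PFDA libraries, and PFDS replicate 1 lay above the rest. The log2 fold change was 0.72 (interval 0.24 to 1.20; edgeR's unadjusted p = 0.00606, adjusted p = 0.89), and 0.42 without PFDS replicate 1. IGF2 overlaps IGF2-AS, so its reads can be left uncounted or misassigned. The list of secreted growth factors as a whole had 28 members tested, 21 above 0, with a median of 0.08.

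Energy and growth genes were examined last. The 13 proteins encoded by the mitochondrial genome summed to 51800, 37600 and 43100 CPM in PFDS and 35200, 51000 and 33300 CPM in PFDA, against 41000, 45300 and 45900 CPM in Control. PFDS replicate 1 and PFDA replicate 2 were high within their groups, and the ranges overlapped. The median of the list was 0.11, and -0.09 without PFDS replicate 1. MT-CO1 and MT-CO2, subunits of cytochrome c oxidase, had log2 fold changes of 0.20 and 0.28, which were 0.14 and 0.16 without that library. Nuclear genes of the respiratory chain had a median of 0.01 over 46, with 23 above 0, and cytosolic ribosomal proteins 0.02 over 50, with 49 intervals within 1.5-fold and a median of 0.14 without PFDS replicate 1. Of 42 cell cycle genes, 34 were above 0 with a median of 0.07, and all 42 intervals lay within 1.5-fold. MKI67, a marker of dividing cells, had 844, 718 and 899 CPM in PFDS and 715, 735 and 742 CPM in PFDA, against a Control mean of 856. Genes of the extracellular matrix and adhesion had a median of 0.04 over 43, autophagy and lysosome genes 0.02 over 29, and retinoic acid metabolism and receptors -0.01 over 21. These 3 medians and those of the respiratory and ribosomal lists changed sign under at least 1 alternative.

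The same change of head group at the shorter chain gave no call either. For PFOS minus PFOA, edgeR called 0 of 24879 genes (0.0%), with a smallest adjusted p of 0.958, 1220 genes (4.9%) at an unadjusted p under 0.05 and 12.9% of genes without overlap, and DESeq2 called 0. Over 11413 genes of at least 10 CPM, the log2 fold changes of the pairs, which share no library, had Pearson's r = 0.17 and Spearman's rho = 0.214, given as a description across genes that are not independent. PFOS minus PFOA followed GC content (rho 0.546), while PFDS minus PFDA did not (rho 0.019). Single libraries of the longer pair did have GC trends, in opposite directions within each group. The rho was -0.38, 0.301 and 0.231 in PFDS and 0.116, -0.169 and 0.122 in PFDA. The value of 0.019 therefore does not show that these libraries were free of such trends. A test of the difference between the pairs called 0 genes (0.0%; edgeR's smallest adjusted p = 0.998), with 869 (3.49%) at an unadjusted p under 0.05. CORIN had an unadjusted p of 0.000569 in that edgeR test (adjusted p = 0.998), with a log2 fold change of -0.65 for PFDS minus PFDA and 0.06 for PFOS minus PFOA. FOS had a log2 fold change of 0.65 for PFDS minus PFDA and -0.70 for PFOS minus PFOA (edgeR's unadjusted p = 0.00276 for the difference, adjusted p = 0.998). Of the 24 genes nearest the threshold, 10 of 12 on the higher side and 9 of 12 on the lower side had the same sign for PFOS minus PFOA, at values from -0.05 to 0.52 and from -0.29 to 0.25. Some of these values were near 0, such as 0.02 for RPH3A and -0.02 for ANKS3, while ALDOA had 0.52. The share of all genes with the same sign was not computed, so these counts have no background and nothing is drawn from them. There were 2 pairs of compounds compared, and p-values were adjusted over genes within each pair, where neither had a call. A p that misses the threshold does not show that PFDS and PFDA act alike. The intervals above give the differences that remain possible, under the spread shared by all groups.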

How the data were processed

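RNA was measured in 21 libraries of differentiated SH-SY5Y cells, 3 for each of 7 groups. Per the submitters' processing notes, the authors used FastQC, MultiQC, HISAT2, SAMtools and featureCounts with the build hg38. The deposited table holds raw counts for 62656 genes, made with featureCounts 2.0.1 per the file headers, whose command sets no strand, pair or multi-mapping option. The library kit kept strand, per the labels' protocols, so where expressed genes overlap their reads can be left uncounted or misassigned. The authors' normalized table was not used.

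Groups came from the sample titles. The filter was filterByExpr (edgeR 4.0.16) and kept 24879 genes, which were scaled with TMM and fitted with a robust quasi-likelihood model over all 21 libraries in R 4.3.3 (biological coefficient of variation 0.1124). Contrasts were PFDS minus PFDA, PFOS minus PFOA and their difference, with Benjamini-Hochberg adjustment over all genes at 0.05. Intervals are 95% intervals from the fit. Library distances used log2(CPM + 0.5). GC content came from the longest transcript in GENCODE for 98.92% of genes, as did gene types. The fit was tested on simulated counts drawn independently for each gene. Such counts hold no trend across a whole library, such as that of PFDS replicate 1 with GC content, so the test does not cover it.

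Because no gene passed, named genes were chosen in other ways. In each direction they were the 12 protein-coding genes whose higher group averaged 5 CPM or more, without overlap and with the smallest p. To these were added 8 genes that earlier results called against Control. The 3 members of each of 33 lists with the smallest p were also selected, but not all of them are named above. Others (RNU1-27P, SCART1, PPARA, HSPA5, ATF4, MAP2, TH and HBB) were named for their role or after their values were seen. CDHR1, NPY, VGF, SLITRK6, MTND2P28 and ENSG00000275139 were named because an alternative called them. Members and lists were chosen with earlier results of these data known. A gene of the cholesterol list is counted in the list but not reported here. Lists are described by counts and medians, with no test. The alternatives were DESeq2 1.42.0 (size factors and test), library size only, 2 other filters, a fit of the compared groups, a replicate block and leaving libraries out. Python 3.11.15, pandas 2.3.3 and matplotlib 3.10.9 made tables and figures.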

Additional observations from a re-analysis of the deposited data

How the results depend on the processing

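The count of 0 genes for PFDS against PFDA held under both DESeq2 settings, scaling by library size only, the stricter filter, a fit of only the compared groups and without Control replicate 3 and 8:2 FTOH replicate 3. It was 10 with no filter on low counts, where PFDS was higher in 5 and lower in 5, and the cause was not tested. Leaving out each PFDS or PFDA library in turn gave 0 to 1 genes: UTRN without PFDS replicate 2, and CDHR1 (log2 fold change -0.90) without PFDS replicate 3. For PFOS against PFOA the count was 2 (NPY and VGF) when the fit held these groups alone, and for the difference between the pairs it was 1 (SLITRK6, 0.70) with no filter. The value of SLC7A11 changed sign (0.009 without PFDA replicate 3, range -0.158 to 0.009 with libraries left out). The labels do not say that replicate numbers pair the libraries, so they were not treated as pairs. Deviations of same-numbered PFDS and PFDA libraries correlated at 0.099, 0.147 and 0.387, each best with its own number, a hint from the data only, and those of PFOS and PFOA at 0.329, 0.117 and -0.066. A fit with the replicate block called 0 genes (edgeR's smallest adjusted p = 0.313). Shallow libraries, from 11839106 counts, and 3 per group limit what could be called below about 10 CPM, where intervals are wider.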
